A study of Mus musculus with 8 samples.

Results

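The genes examined here encode 10 transcription factors known to restrain fat cell formation or to hold mesenchymal cells in their undifferentiated state. They were chosen by name for that known role. No measured value is part of the rule, although earlier results of these data were known when it was set. The 3 GATA zinc finger factors were *Gata2*, *Gata3* and *Gata6*, the 2 Krüppel-like zinc finger factors *Klf2* and *Klf3*, and the 2 basic helix-loop-helix factors of the Twist family *Twist1* and *Twist2*. The others were the zinc finger repressor gene *Snai2* (Slug), the nuclear receptor gene *Nr2f2* (COUP-TFII) and the Notch target gene *Hes1*. All 10 were found among the 41325 gene symbols of each library, and 9 of them were among the 11513 genes with an RPKM (reads scaled by exon length and by the mapped reads of the library) over 1 in at least 1 library. *Gata3* reached at most 0.970 and was described without being counted.

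RNA was sequenced from C3H10T1/2 cells. These mouse mesenchymal stem cells (MSCs) grow as a line and become fat cells once confluent cultures receive a hormone mixture of insulin, dexamethasone and isobutylmethylxanthine (MDI). The 4 lines were shControl cells, whose genotype the labels give as WT, and the knockdown lines shKDM4D, shNFIB and shMLL1, which carry short hairpin RNAs against the histone demethylase KDM4D, the transcription factor NFIB or the histone methyltransferase MLL1. Each line was sequenced at day 0, when cells were confluent and not yet induced, and on day 5 after induction. Each of the 8 conditions had a single library. The knockdown lines were isolated puromycin-resistant clones, and which clone of a target was sequenced is not given in the sources used here, so a knockdown and a difference between clones cannot be told apart. Whether shControl cells carried a control vector and were selected and cloned in the same way is not given either. Effects of selection or cloning shared by the knockdown lines thus cannot be told apart from the knockdowns. No condition had a replicate library, so the ratios within a line and to shControl carry no p-value. The difference between the days could be tested over the 4 lines, with each line as its own control. The 95% intervals are exact intervals of the ratio of read counts and cover counting error only, not the spread between cultures. PCR copies of a molecule were not marked, so these intervals are too narrow if such copies were frequent.

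In MSCs, a cascade of C/EBP factors leads to PPARγ and C/EBPα, which switch on the genes of the fat cell. The factors of this group are known to act against that cascade in different ways. GATA2 and GATA3 bind C/EBP proteins and repress *Pparg*, KLF2 represses *Pparg* and KLF3 represses *Cebpa* with the corepressor CtBP. TWIST proteins bind E-boxes with E protein partners and hold mesenchymal progenitors, and Id proteins take those partners away. SNAI2 represses genes through E-boxes and is known for epithelial to mesenchymal transition, COUP-TFII is a nuclear receptor abundant in progenitors, and HES1 is a repressor switched on by Notch receptors when Jagged or Delta ligands bind them.

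Promoter letters are shown for 2 pairs of relatives whose members differed in how much their mRNA varied across the 8 libraries: *Klf2* (3.45-fold from the lowest to the highest library) against *Klf3* (1.22-fold), and *Twist2* (5.03-fold) against *Twist1* (1.44-fold). The sequences are those of RefSeq on GRCm38.p6, 5′ to 3′ on the strand of the gene, and they stop before the first base annotated as part of the gene. Capitals mark GC boxes (GGGCGG or its complement), to which Sp and Krüppel-like factors can bind, in the *Klf* genes, and CCAAT boxes (CCAAT or its complement) in the *Twist* genes. They lie at chr8:72318812-72319032 (*Klf2*), chr5:64803271-64803387 (*Klf3*), chr12:33957421-33957670 (*Twist1*) and chr1:91801211-91801460 (*Twist2*), all on the plus strand.
Klf2: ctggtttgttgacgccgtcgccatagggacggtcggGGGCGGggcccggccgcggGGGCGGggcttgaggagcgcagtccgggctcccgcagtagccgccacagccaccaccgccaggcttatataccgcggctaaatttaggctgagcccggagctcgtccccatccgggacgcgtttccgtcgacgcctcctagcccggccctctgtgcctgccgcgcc
Klf3: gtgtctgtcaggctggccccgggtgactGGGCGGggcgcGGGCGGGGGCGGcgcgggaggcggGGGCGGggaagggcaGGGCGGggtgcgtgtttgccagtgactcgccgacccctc
Twist1: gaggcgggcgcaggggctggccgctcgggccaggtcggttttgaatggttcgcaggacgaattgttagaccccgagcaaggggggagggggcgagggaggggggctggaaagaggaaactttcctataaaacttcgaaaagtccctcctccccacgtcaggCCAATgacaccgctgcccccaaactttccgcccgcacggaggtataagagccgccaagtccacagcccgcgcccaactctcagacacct
Twist2: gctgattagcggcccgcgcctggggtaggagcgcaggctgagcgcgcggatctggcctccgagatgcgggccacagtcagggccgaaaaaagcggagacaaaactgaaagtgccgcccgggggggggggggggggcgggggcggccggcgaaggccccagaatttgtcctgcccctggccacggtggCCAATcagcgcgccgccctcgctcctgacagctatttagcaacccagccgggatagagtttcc

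The *Klf2* stretch of 221 bases held 2 GC boxes and the shorter *Klf3* stretch of 117 bases held 5. In equal windows of 250 bases the counts were 2 and 6. Each *Twist* stretch held 1 CCAAT box, 89 bases (*Twist1*) and 63 bases (*Twist2*) before the start site. In the windows of 250 bases before each RefSeq start, a GC box was found in 32.7% and a CCAAT box in 33.8% of all 32851 windows on both strands. Windows were used for 7 members, with 8 windows because *Gata2* has 2 starts. *Gata6* was left out, and no window was used for *Hes1* and *Snai2*. A GC box was found in 7 of these 8 windows, those of both *Twist* genes included, and a CCAAT box in 4. These motifs were chosen after the letters had been seen, and a match is a description of the letters and not a binding site. The G+C share of the 8 windows was between 50.0% (*Nr2f2*) and 78.4% (*Klf3*), against a median of 52.4% over all windows. *Nr2f2* held 1 CpG and the others 18 to 29, against a median of 6. The E-box (CANNTG) to which Twist and Snail factors bind was found in 2 of the 8 windows, those of *Klf3* and *Nr2f2*, and in 66.2% of all windows. The short NFI site (TTGGCA) was found in 1 of 8, a *Gata2* window, and in 12.3% of all, a GATA site (AGATAA) in none of 8 and 9.99% of all, and the RBPJ site (GTGGGAA) of Notch signalling in none of 8 and 5.42% of all. The site named for the Krüppel-like factors (CACCC) was found in 5 of 8 and 52.0% of all, the N-box of HES factors (CACNAG) in 2 of 8 and 36.7% of all, and the E-box preferred by Snail factors (CAGGTG, counted among the E-boxes as well) in none of 8 and 17.2% of all.

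The libraries held between 15800000 and 38200000 mapped reads, and at the shallowest depth 3 reads on a gene with 1 kb of exons give an RPKM of 0.189. All 8 mesenchymal markers passed an RPKM of 1 in at least 1 library, while endothelial, blood and epithelial marker sums stayed at or below 1.81 in every library, with *Epcam* and *Tie1* at 0. The smooth muscle marker *Acta2* and the cartilage marker *Sox9* were abundant, with the sums of their lists at 289.7 to 1287 and 71.7 to 193. These sums rest mostly on the 2 named genes. Of the others, *Tagln* reached 7.19 and *Col2a1* 27.5, but *Myh11* at most 0.324, *Cnn1* 0.0686, *Acan* 0.00619 and *Matn1* 0.0315. The sum of 6 fat cell markers was at most 0.702 at day 0 and between 0.936 and 796 at day 5. *Adipoq*, which encodes adiponectin, had an RPKM of 258 at day 5 in shControl, 9.01 in shKDM4D and 0.229 in shNFIB cells, and 0.570 in the shMLL1 line. In these bulk samples fewer cells of a type and less RNA per cell cannot be told apart. At day 5 *Nfib* had an RPKM of 3.38 in shNFIB cells against 17.0 in shControl, *Kmt2a* (MLL1) 1.63 in shMLL1 against 5.27, and *Kdm4d* 0.0647 in shKDM4D against 0.235. *Kdm4d* rests on 4 and 13 reads there, and at day 0 on 1 read in shKDM4D (0.0179) and 2 in shControl (0.0262), too few to show a knockdown. The lines also differed in genes outside the targets: the mesenchymal marker *Thy1* was at 22.6 to 25.01 in shControl and 11.1 to 11.8 in shMLL1 cells, but at most 0.139 in shKDM4D and shNFIB cells. The part of *Thy1* or of the fat cell markers in the values below was not tested.

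Levels per kilobase of exon differed widely within the group. *Snai2* was the most abundant, with an RPKM between 22.9 and 147, and the median over the libraries stood above 90.6% of the expressed genes. *Twist1* (26.8 to 38.5) and *Klf3* (14.0 to 17.1) followed, while *Klf2*, *Nr2f2* and *Hes1* had medians of 10.7, 9.70 and 9.02. *Twist2* and *Gata2* had medians of 4.57 and 3.10. *Gata6* reached at most 1.34 and *Gata3* at most 0.970, with medians of 0.711 and 0.364 and with 41 to 158 and 13 to 72 reads.

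**Figure D1:**
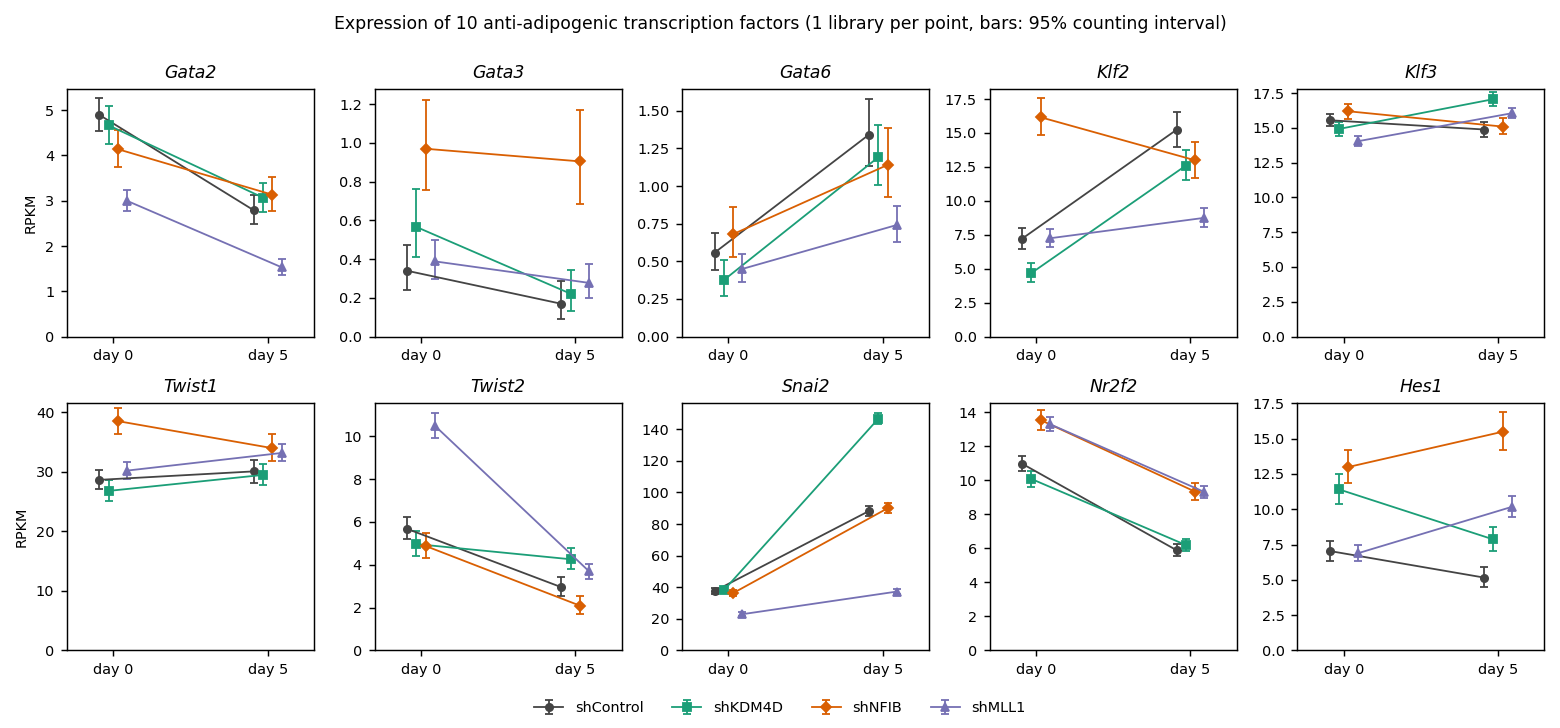
RPKM (vertical axis, from 0) of the 10 genes at day 0 and day 5, 1 panel per gene and 1 library per point, with shControl in grey, shKDM4D in green, shNFIB in orange and shMLL1 in purple. Bars are 95% counting intervals. *Klf3* and *Twist1* stayed within 1.22-fold and 1.44-fold, while *Snai2* ranged from 22.9 to 147 and *Twist2* from 2.09 to 10.5.

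From day 0 to day 5 the group did not move as one. A log2 ratio of 1 is a 2-fold difference, which was the limit for calling a member higher or lower. In shControl cells 3 of the 9 expressed members were higher by more than 2-fold (*Gata6*, *Klf2* and *Snai2*) and none was lower, while 13.0% of all expressed genes were higher and 8.56% lower. In shKDM4D cells 3 were higher, again *Gata6*, *Klf2* and *Snai2*, and none was lower, against 12.8% and 8.44% of all. *Gata6* passed an RPKM of 1 only in day 5 libraries, so it was counted only through the day at which it was higher. In shNFIB cells 1 member was higher (*Snai2*) and 1 lower (*Twist2*), against 12.6% and 4.96%. In shMLL1 cells none was higher and 1 was lower (*Twist2*), against 20.4% and 6.89%. The median log2 ratio of the 9 members was -0.06 in shControl, 0.14 in shKDM4D and -0.18 in shNFIB cells, and 0.19 in the shMLL1 line. The median over all expressed genes was 0.03, 0.03, 0.09 and 0.17. Shares of all genes depended on the scale: quantile normalization gave 13.3% higher and 11.9% lower in shMLL1 cells, and the ratio to *Gapdh* 7.30% and 17.5% in shNFIB cells. Adding 1 to each RPKM before the ratio left *Snai2* alone among the higher members in shControl and shNFIB cells.

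**Figure D2:**
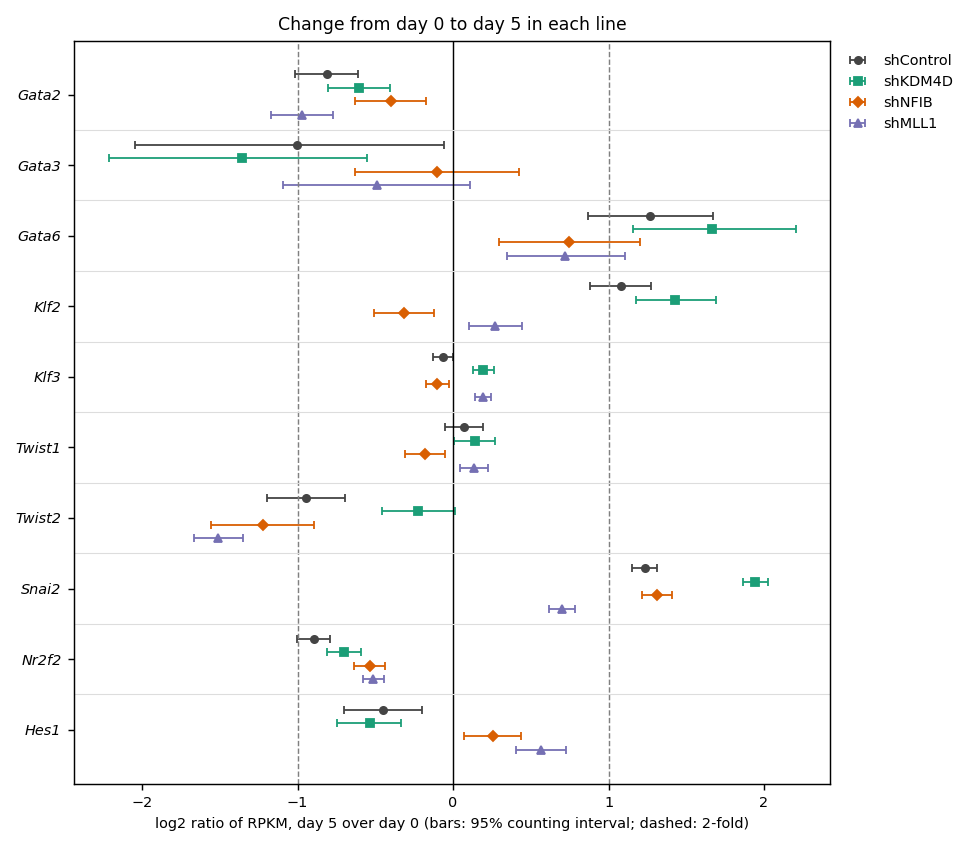
Log2 ratio of RPKM at day 5 over day 0 (horizontal axis) for each gene (vertical axis) and line, with 95% counting intervals as bars and dashed lines at 2-fold. *Snai2* lay to the right of 0 in all 4 lines (0.70 to 1.94) and *Nr2f2* to the left (-0.90 to -0.51), while *Hes1* was at -0.54 to -0.45 in shControl and shKDM4D cells and at 0.25 and 0.57 in shNFIB and shMLL1 cells, where the ratio to *Gapdh* turns the shNFIB value to -0.31.

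The difference between the days was tested over the 4 lines in 1 fit to the 11513 expressed genes (limma on log2(RPKM + 0.1), line as a block, Benjamini-Hochberg adjustment over all genes). In this fit the disagreement between lines is the error, and 3 of the lines are knockdowns. At an adjusted p under 0.05 it called 2 of the 9 members higher at day 5 and 3 lower, while 28.1% of all genes were higher and 20% lower. *Snai2* was higher by 1.29 ± 0.21 on the log2 scale (SE, adjusted p = 0.00736), above its day 0 level in 4 of 4 lines. *Gata6* was higher by 0.96 ± 0.17 (adjusted p = 0.00935 in limma), also in 4 of 4 lines, but not with quantile normalization (adjusted p = 0.148). *Gata6* entered the fit only through its day 5 libraries. *Nr2f2* was lower at -0.66 ± 0.10 (adjusted p = 0.00712 in limma) and *Gata2* at -0.67 ± 0.12 (adjusted p = 0.00965), each in 4 of 4 lines, and both missed the limit by the ratio to *Gapdh* (adjusted p = 0.112 and 0.101). *Twist2* was lower at -0.95 ± 0.22 (adjusted p = 0.0202 in limma) in 4 of 4 lines, and the call was lost without shControl (0.0604), shNFIB (0.0741) or shMLL1 cells (0.0571). The estimates for *Klf2* (0.61 ± 0.31, adjusted p = 0.154), *Klf3* (0.06 ± 0.10, 0.675), *Twist1* (0.04 ± 0.10, 0.759) and *Hes1* (-0.04 ± 0.22, 0.890) did not pass.

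Knockdown lines were compared with shControl cells of the same day. All 3 comparisons of a day share 1 shControl library, so an error in that library would enter each of them. At day 0 no member passed 2-fold in shKDM4D cells (1.98% of all expressed genes were higher and 4.26% lower) or in shMLL1 cells (1.67% and 7.43%). In shNFIB cells 1 member was higher, *Klf2*, and none was lower, against 2.95% and 6.05% of all. At day 5 no member passed 2-fold in shKDM4D cells (1.88% and 4.57% of all). In shNFIB cells 1 member was higher, *Hes1*, and none lower, against 5.54% and 5.67%. In shMLL1 cells none was higher and 1 was lower, *Snai2*, against 5.25% and 4.02%. Median log2 ratios of the members to shControl were -0.10, 0.29 and -0.03 at day 0 and 0.14, 0.03 and 0.11 at day 5 in shKDM4D, shNFIB and shMLL1 cells. Those of all expressed genes were between -0.07 and 0.09.

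**Figure D3:**
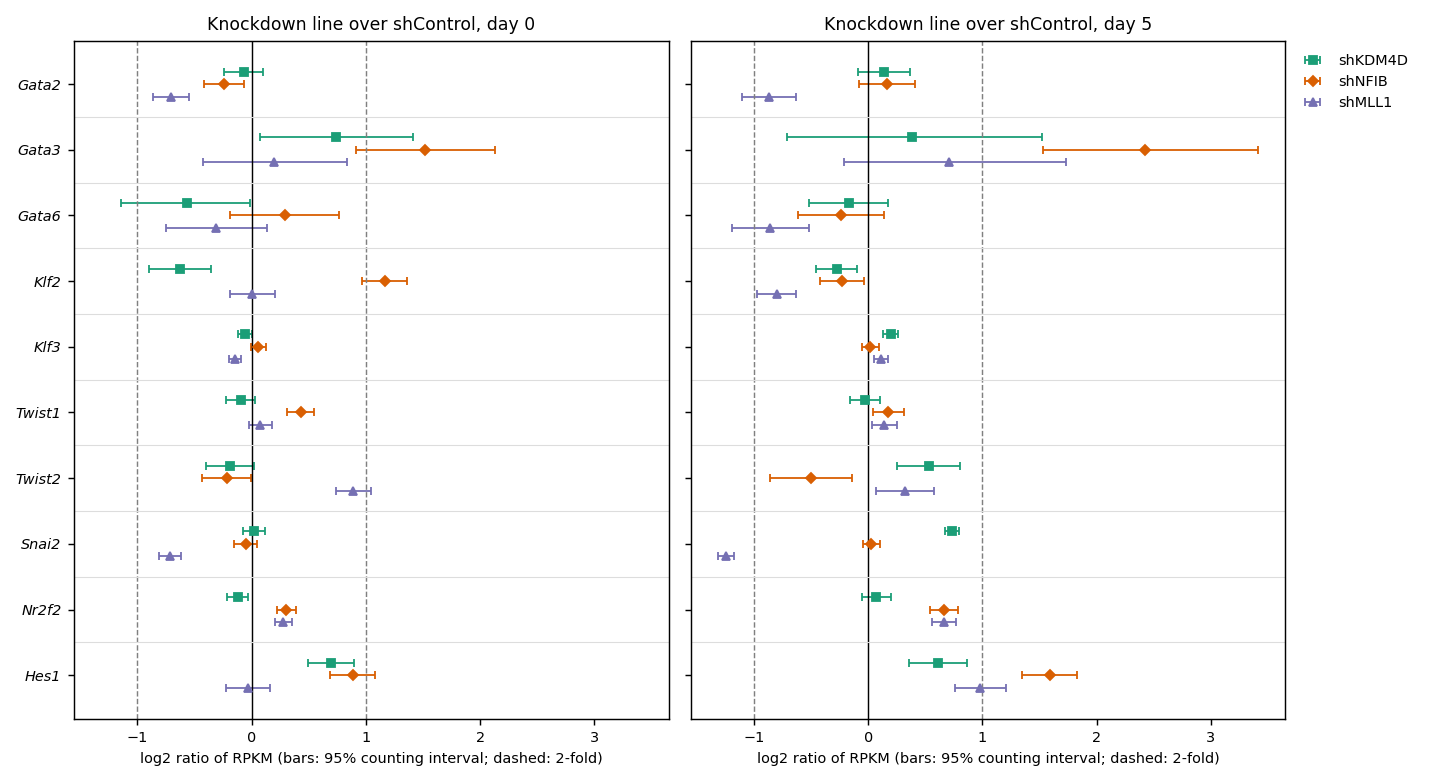
Log2 ratio of RPKM in a knockdown line over shControl (horizontal axis) at day 0 (left) and day 5 (right), for each gene (vertical axis), with 95% counting intervals as bars and dashed lines at 2-fold. Past 2-fold with an RPKM over 1 lay *Klf2* in shNFIB cells at day 0 (1.16), *Hes1* in shNFIB cells at day 5 (1.59) and *Snai2* in shMLL1 cells at day 5 (-1.25), and *Gata3* is drawn although it was below 1 in all libraries.

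*Gata2* (chromosome 6 of GRCm38, 88193891 to 88207032) encodes a factor of hematopoietic and preadipose cells. Its RPKM was 4.90 at day 0 and 2.79 at day 5 in shControl, 4.66 and 3.07 in shKDM4D, 4.14 and 3.13 in shNFIB, and 2.997 and 1.53 in shMLL1 cells. Day 5 was below day 0 in each line, and the day 0 level of shMLL1 cells was already among the day 5 levels of the others. The day 5 to day 0 log2 ratio was -0.81 (-1.01 to -0.61) in shControl, -0.60 (-0.80 to -0.41) in shKDM4D, -0.40 (-0.63 to -0.18) in shNFIB and -0.97 (-1.17 to -0.77) in shMLL1 cells, none of them past 2-fold. Against shControl, shMLL1 cells had a log2 ratio of -0.71 (-0.87 to -0.55) at day 0 and -0.87 (-1.10 to -0.63) at day 5. Ordered by level, shNFIB day 5, shKDM4D day 5, shMLL1 day 0 and shControl day 5 followed each other with no step beyond counting error. The shMLL1 library at day 5 was below all.

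*Gata3* (chromosome 2, 9857078 to 9890034) is the closest relative of *Gata2* in the fat lineage and was low throughout. It had an RPKM of 0.340 and 0.169 in shControl, 0.566 and 0.221 in shKDM4D, 0.970 and 0.904 in shNFIB, and 0.388 and 0.277 in shMLL1 cells at day 0 and day 5, from 13 to 72 reads. The shNFIB libraries were the highest at both days. Against shControl, the day 0 log2 ratio of shNFIB cells was 1.51 (0.92 to 2.13), on 72 against 36 reads. The day 5 ratio was 2.42 (1.53 to 3.41), on 57 against 13 reads. In the other lines the counting interval of the ratio to shControl took in 0 except in shKDM4D cells at day 0 (0.74, 0.07 to 1.41).

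*Gata6* is better known for endoderm and heart, and lies on chromosome 18 (11052064 to 11085635). Its RPKM was 0.557 and 1.34 in shControl, 0.375 and 1.19 in shKDM4D, 0.680 and 1.14 in shNFIB, and 0.450 and 0.741 in shMLL1 cells at day 0 and day 5. The day 5 value was above the day 0 value in every line, and it was lowest in shMLL1 cells. The log2 ratio of day 5 to day 0 was 1.27 (0.87 to 1.67) in shControl and 1.67 (1.16 to 2.20) in shKDM4D cells, which were past 2-fold. It was 0.75 (0.29 to 1.20) in shNFIB and 0.72 (0.35 to 1.10) in shMLL1 cells, where quantile normalization turned the last to -0.21. At day 5 shMLL1 cells had a log2 ratio of -0.86 (-1.19 to -0.52) to shControl. The annotated exon length of 6508 bases did not give whole reads for this gene, and the reads behind the intervals rest on a length of 5590 bases, which did so in all 8 libraries.

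Among the 9 GATA factors and cofactors, 6 were expressed. In shControl cells 1 was higher at day 5 (*Gata6*, expressed only through day 5 libraries) and none lower, against 13.0% and 8.56% of all expressed genes. The median log2 ratio over the 6 was -0.36. *Trps1*, an atypical GATA protein that acts as a repressor, was at 3.91 and 6.75 RPKM in shControl, 5.04 and 12.6 in shKDM4D, 3.58 and 4.66 in shNFIB, and 3.29 and 7.03 in shMLL1 cells. It was higher by more than 2-fold at day 5 in shKDM4D (1.32, 1.23 to 1.41) and shMLL1 cells (1.09, 1.01 to 1.18). *Zfpm1*, which encodes the GATA cofactor FOG1, fell in shMLL1 cells from 9.44 to 2.52, a log2 ratio of -1.90 (-2.08 to -1.73). Of the 6 expressed genes none differed from shControl by more than 2-fold in any knockdown line at either day, while *Gata3*, not expressed by that limit, did so in shNFIB cells. In these comparisons 1.67% to 5.54% of all expressed genes were higher and 4.02% to 7.43% lower. The nearest of the 6 were *Trps1* in shKDM4D (0.90, 0.82 to 0.98) and *Gata4* in shNFIB cells at day 5 (0.89, 0.63 to 1.16).

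*Klf2* (chromosome 8, 72319033 to 72321656) took a different course in the lines. The RPKM at day 0 and day 5 was 7.22 and 15.2 in shControl, 4.68 and 12.6 in shKDM4D, 16.2 and 13.0 in shNFIB, and 7.24 and 8.75 in shMLL1 cells. It was higher at day 5 in shControl (1.08, 0.88 to 1.28) and shKDM4D cells (1.43, 1.17 to 1.69). In shNFIB cells the log2 ratio of day 5 to day 0 was -0.32 (-0.51 to -0.12), and in shMLL1 cells it was 0.27 (0.10 to 0.44). At day 0 the shNFIB library was higher than shControl, by a fold of 2.24 and a log2 ratio of 1.16 (0.97 to 1.36), whose interval reached just under 2-fold. At day 5 shNFIB cells were close to shControl (-0.23, -0.42 to -0.04) and shMLL1 cells were at -0.80 (-0.97 to -0.63). The change from day 0 to day 5 in shNFIB minus that in shControl was -1.39 (-1.66 to -1.12), and in shMLL1 minus shControl -0.81 (-1.06 to -0.55). Over the 6 other scales and pseudocounts tried, these differences were between -1.99 and -1.28 and between -0.97 and -0.74.

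*Klf3* (chromosome 5, 64803388 to 64832901) was flat. Its 8 RPKM values lay between 14.0 (shMLL1 day 0) and 17.1 (shKDM4D day 5), with 2688 to 6881 reads, so that counting error was small. The day 5 to day 0 log2 ratio was -0.06 (-0.13 to 0.00198) in shControl, 0.19 (0.13 to 0.26) in shKDM4D, -0.10 (-0.18 to -0.03) in shNFIB and 0.19 (0.14 to 0.24) in shMLL1 cells. No ratio to shControl was beyond -0.15 or 0.20 at either day. *Ctbp1* and *Ctbp2*, which encode the corepressors through which KLF3 acts, were at 17.8 to 31.4 and 5.71 to 8.50 RPKM. These 2 genes and *Klf3* were thus present in all libraries.

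Of the 19 Krüppel-like factors and CtBP genes, 15 were expressed. In shControl cells 3 were higher at day 5 and 3 lower, with a median of -0.22, against 13.0% and 8.56% of all expressed genes. *Klf4*, a factor that is induced early in the fat program, was lower (93.4 to 32.0 RPKM, log2 ratio -1.55, -1.62 to -1.47), as was *Klf5*, which cooperates with C/EBP factors (1.96 to 0.269, -2.87, -3.50 to -2.30). *Klf15*, which acts late and drives fat cell genes, was higher (0.296 to 1.52, 2.36, 1.67 to 3.11), as was *Klf9* (10.7 to 25.4, 1.25, with no interval because its length gave no whole reads). *Klf15* passed an RPKM of 1 only in shControl and shMLL1 cells at day 5, and *Klf5* only in day 0 libraries. Both were thus counted, here and below, only through libraries in which they were high. The counts were 3 higher and 3 lower in shKDM4D, 1 and 1 in shNFIB and 2 and 2 in shMLL1 cells, with medians of 0.13, -0.24 and -0.09. Of all expressed genes 12.8% were higher and 8.44% lower in shKDM4D, 12.6% and 4.96% in shNFIB, and 20.4% and 6.89% in shMLL1 cells. At day 5 shNFIB cells had 2 genes above shControl by more than 2-fold, *Klf5* (1.58, 0.91 to 2.28) and *Klf4* (65.8 against 32.0 RPKM, 1.04, 0.96 to 1.12), and 1 below, *Klf15* (0.407 against 1.52, -1.90, -2.72 to -1.15). In shMLL1 cells 1 was above, *Klf10* (15.2 against 6.38, 1.26, 1.12 to 1.40), and none below. In shKDM4D cells none was above and 1 below, *Klf15* (0.448 against 1.52, -1.76, -2.45 to -1.12). In shMLL1 cells *Klf15* was at 2.84 RPKM at day 5, its highest level, above the 1.52 of shControl but within 2-fold. Of all expressed genes 5.54% were above and 5.67% below in shNFIB, 5.25% and 4.02% in shMLL1, and 1.88% and 4.57% in shKDM4D cells. At day 0 *Klf15* was the 1 gene below shControl in each knockdown line, with an RPKM of 0.296 in shControl and 0.128, 0.0192 and 0.00938 in shKDM4D, shNFIB and shMLL1 cells, which rests on few reads. *Klf2* in shNFIB cells was the one above.

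*Twist1* (chromosome 12, 33957671 to 33959829) was nearly as steady as *Klf3*. The RPKM at day 0 and day 5 was 28.6 and 30.1 in shControl, 26.8 and 29.5 in shKDM4D, 38.5 and 33.97 in shNFIB, and 30.2 and 33.2 in shMLL1 cells. The shNFIB library at day 0 was the highest, with a log2 ratio of 0.43 (0.31 to 0.54) to shControl. Among the 5 libraries from shMLL1 day 0 down to shKDM4D day 0, no step in level to the next was beyond counting error.

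*Twist2* (chromosome 1, 91801461 to 91848028), the other Twist factor of dermal and mesenchymal progenitors, was less abundant and below its day 0 level at day 5 in each line. It was at 5.68 and 2.95 in shControl, 4.97 and 4.26 in shKDM4D, 4.88 and 2.09 in shNFIB, and 10.5 and 3.69 in shMLL1 cells. The shMLL1 library at day 0 was the highest, at a fold of 1.85 over shControl and a log2 ratio of 0.89 (0.73 to 1.04). *Twist2* was lower by more than 2-fold at day 5 in shMLL1 (-1.51, -1.67 to -1.35) and shNFIB cells (-1.22, -1.56 to -0.90). It was at -0.94 (-1.20 to -0.69) in shControl and -0.22 (-0.46 to 0.0130) in shKDM4D cells. The change in shKDM4D minus that in shControl was 0.72 (0.38 to 1.06), and the change in shMLL1 minus shControl was -0.57 (-0.86 to -0.27). In the shNFIB line the interval crossed 2-fold, and with 1 added to each RPKM the ratio no longer passed it.

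Among the 11 Twist proteins, partners and inhibitors 8 were expressed, and *Twist1* and *Twist2* are counted with them. In shControl cells none was higher at day 5 and 1 lower, *Id2* (29.1 to 11.1 RPKM, -1.40, -1.54 to -1.26), which encodes an inhibitor that holds E proteins away from DNA. The median was -0.16 in shControl, -0.10 in shKDM4D and -0.15 in shNFIB cells, and 0.05 in the shMLL1 line. In shMLL1 cells *Id2* and *Twist2* were lower, in shNFIB cells *Twist2* alone, and in shKDM4D cells none, while none was higher in these 3 lines. Of all expressed genes 13.0%, 12.8%, 12.6% and 20.4% were higher in shControl, shKDM4D, shNFIB and shMLL1 cells. The shares lower were 8.56%, 8.44%, 4.96% and 6.89%. The E protein genes *Tcf3*, *Tcf4* and *Tcf12* stayed within 2-fold in every comparison. At day 5 *Id2* was higher in shNFIB cells than in shControl (26.9 against 11.1, 1.28, 1.13 to 1.44), and no other of the 8 expressed genes passed 2-fold against shControl at either day. In the comparisons with shControl 1.67% to 5.54% of all expressed genes were higher and 4.02% to 7.43% lower.

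*Snai2* (chromosome 16, 14705852 to 14709385) had the largest range of the 10 genes, 6.40-fold. Its RPKM was 37.6 and 88.3 in shControl, 38.1 and 147 in shKDM4D, 36.3 and 90.0 in shNFIB, and 22.9 and 37.2 in shMLL1 cells at day 0 and day 5. The shControl, shKDM4D and shNFIB lines started at levels that did not differ beyond counting error. The shMLL1 line started lower, and its day 5 level was among the day 0 levels of the others. The log2 ratio of day 5 to day 0 was 1.23 (1.15 to 1.31) in shControl, 1.94 (1.86 to 2.03) in shKDM4D and 1.31 (1.22 to 1.40) in shNFIB cells, all past 2-fold. It was 0.70 (0.61 to 0.79) in shMLL1 cells. Against shControl at day 5, shKDM4D cells were at 0.73 (0.67 to 0.79), shNFIB cells at 0.03 (-0.04 to 0.10) and shMLL1 cells at -1.25 (-1.32 to -1.17), the last past 2-fold. The change in shKDM4D minus that in shControl was 0.71 (0.60 to 0.83), and in shMLL1 minus shControl -0.53 (-0.65 to -0.41). At day 5 *Adipoq* was at 258, 9.01, 0.229 and 0.570 RPKM in shControl, shKDM4D, shNFIB and shMLL1 cells. Its relation to *Snai2* was not tested.

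Of the 7 genes of the Snail and ZEB family, 4 were expressed, and *Snai2* was the one past 2-fold at day 5 in shControl, shKDM4D and shNFIB cells, with none lower. Of all expressed genes 13.0%, 12.8% and 12.6% were higher and 8.56%, 8.44% and 4.96% lower in these lines. *Snai1*, the closest relative, was at 11.5 and 19.2 in shControl, 23.3 and 33.2 in shKDM4D, 19.8 and 16.4 in shNFIB, and 15.2 and 19.8 RPKM in shMLL1 cells. At day 0 it was higher in shKDM4D cells than in shControl (1.01, 0.85 to 1.18). *Zeb2* had a day 5 to day 0 log2 ratio of 0.84 (0.77 to 0.90) in shControl and 0.95 (0.90 to 1.01) in shMLL1 cells. The median of the 4 genes was 0.79 in shControl, 0.66 in shKDM4D and 0.07 in shNFIB cells, and 0.54 in the shMLL1 line.

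*Nr2f2* (chromosome 7, 70351944 to 70366735) had the same direction in all lines. Its RPKM at day 0 and day 5 was 10.96 and 5.88 in shControl, 10.1 and 6.19 in shKDM4D, 13.5 and 9.32 in shNFIB, and 13.3 and 9.31 in shMLL1 cells. All day 0 values were above all day 5 values, and the shNFIB and shMLL1 lines were above the other pair at each day. The day 5 to day 0 log2 ratio was -0.90 (-1.01 to -0.79) in shControl, -0.70 (-0.81 to -0.59) in shKDM4D, -0.54 (-0.64 to -0.44) in shNFIB and -0.51 (-0.58 to -0.45) in shMLL1 cells, none past 2-fold. At day 5 the log2 ratio to shControl was 0.66 (0.54 to 0.79) in shNFIB and 0.66 (0.56 to 0.77) in shMLL1 cells, and 0.07 (-0.05 to 0.20) in shKDM4D cells. The change in a knockdown line minus that in shControl was 0.20 (0.04 to 0.35) in shKDM4D, 0.36 (0.21 to 0.51) in shNFIB and 0.38 (0.26 to 0.51) in shMLL1 cells, where the ratio to *Gapdh* turned the shNFIB value to -0.23. The relatives *Nr2f1* (8.71 to 14.0 RPKM) and *Nr2f6* (5.64 to 7.32) were expressed in all libraries, and none of the 3 genes passed 2-fold in any of the 10 comparisons. In these comparisons 1.67% to 20.4% of all expressed genes were higher and 4.02% to 8.56% lower. The median of the 3 genes from day 0 to day 5 was -0.20, -0.07, 0.08 and -0.51 in shControl, shKDM4D, shNFIB and shMLL1 cells.

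*Hes1* (chromosome 16, 30064384 to 30067796) had a day 5 level below its day 0 level in shControl and shKDM4D cells and above it in the other two lines. At day 0 and day 5 its RPKM was 7.04 and 5.16 in shControl, 11.4 and 7.86 in shKDM4D, 13.0 and 15.5 in shNFIB, and 6.87 and 10.2 in shMLL1 cells. At day 5 every knockdown line was above shControl, whereas at day 0 the shMLL1 line was at the shControl level. The log2 ratio to shControl at day 5 was 0.61 (0.35 to 0.87) in shKDM4D, 1.59 (1.35 to 1.83) in shNFIB and 0.98 (0.76 to 1.21) in shMLL1 cells, of which the shNFIB value was past 2-fold. At day 0 it was 0.70 (0.50 to 0.90) in shKDM4D, 0.88 (0.69 to 1.08) in shNFIB and -0.03 (-0.23 to 0.16) in shMLL1 cells. The day 5 to day 0 log2 ratio was -0.45 (-0.70 to -0.20) in shControl and -0.54 (-0.74 to -0.33) in shKDM4D cells, against 0.25 (0.07 to 0.44) in shNFIB and 0.57 (0.41 to 0.73) in shMLL1 cells, and the ratio to *Gapdh* turned the shNFIB value to -0.31. The change in shNFIB minus that in shControl was 0.70 (0.40 to 1.01), and in shMLL1 minus shControl 1.01 (0.72 to 1.31). By the ratio to *Gapdh* these were 0.11 and 0.87.

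Of the 25 genes of the Notch pathway 16 were expressed, *Hes1* included, and the counts are over these. From day 0 to day 5 the number higher by more than 2-fold was 3 in shControl, 4 in shKDM4D and 6 in shNFIB cells, and 7 in the shMLL1 line, with none, none, none and 1 lower, and the medians were 0.36, 0.47, 0.22 and 0.68. Of all expressed genes, 13.0%, 12.8%, 12.6% and 20.4% were higher in these lines. Among the receptors, *Notch1* was at 0.710 and 3.87 RPKM in shControl and 1.21 and 7.55 in shMLL1 cells, and *Notch3* at 3.41 and 9.31 in shControl and 7.55 and 17.1 in shNFIB cells. *Jag1*, the 1 ligand gene with an RPKM over 1, was at 4.95 and 8.83 in shControl, 10.0 and 15.5 in shKDM4D, 10.5 and 27.8 in shNFIB, and 4.57 and 14.2 in shMLL1 cells. Like *Hes1*, it was above shControl at day 5 in each knockdown line, and in shNFIB cells by more than 2-fold (1.66, 1.55 to 1.76). At day 0 it was higher in shKDM4D (1.02, 0.89 to 1.15) and shNFIB cells (1.09, 0.95 to 1.22).

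The *Hey1* and *Hey2* genes encode repressors of the same kind as HES1 and were low. *Hey1* passed an RPKM of 1 only in shNFIB and shMLL1 cells at day 5, and *Hey2* only in shNFIB cells at day 5. These genes were thus counted only through knockdown libraries, and the list counts take them in. At day 5 *Hey1* was at 0.0634 in shControl, 0.283 in shKDM4D and 1.51 in shNFIB cells, and 1.16 RPKM in the shMLL1 line, and *Hey2* at 0.225, 0.624, 1.06 and 0.919. Both were higher than in shControl by more than 2-fold in all 3 knockdown lines, with log2 ratios for *Hey1* of 2.16 (0.58 to 4.17), 4.57 (3.16 to 6.48) and 4.19 (2.80 to 6.09) in shKDM4D, shNFIB and shMLL1 cells. For *Hey2* they were 1.47 (0.72 to 2.28), 2.23 (1.51 to 3.02) and 2.03 (1.35 to 2.78). Counts of the list against shControl at day 5 were 2 higher and none lower in shKDM4D, 4 and 1 in shNFIB, and 2 and none in shMLL1 cells. The 2 higher in shKDM4D and in shMLL1 cells were *Hey1* and *Hey2* alone. The 4 in shNFIB cells were these genes, *Hes1* and *Jag1*. Of all expressed genes 1.88% and 4.57%, 5.54% and 5.67%, and 5.25% and 4.02% were higher and lower there. The list counts at day 0 were 2 and 1, 2 and 2, and 1 and 1. The shares of all genes were 1.98% and 4.26%, 2.95% and 6.05%, and 1.67% and 7.43%. *Rbpj*, the DNA-binding partner of the Notch receptors, went from 17.7 to 9.39 in shControl and from 12.8 to 5.36 RPKM in shMLL1 cells.

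**Figure D4:**
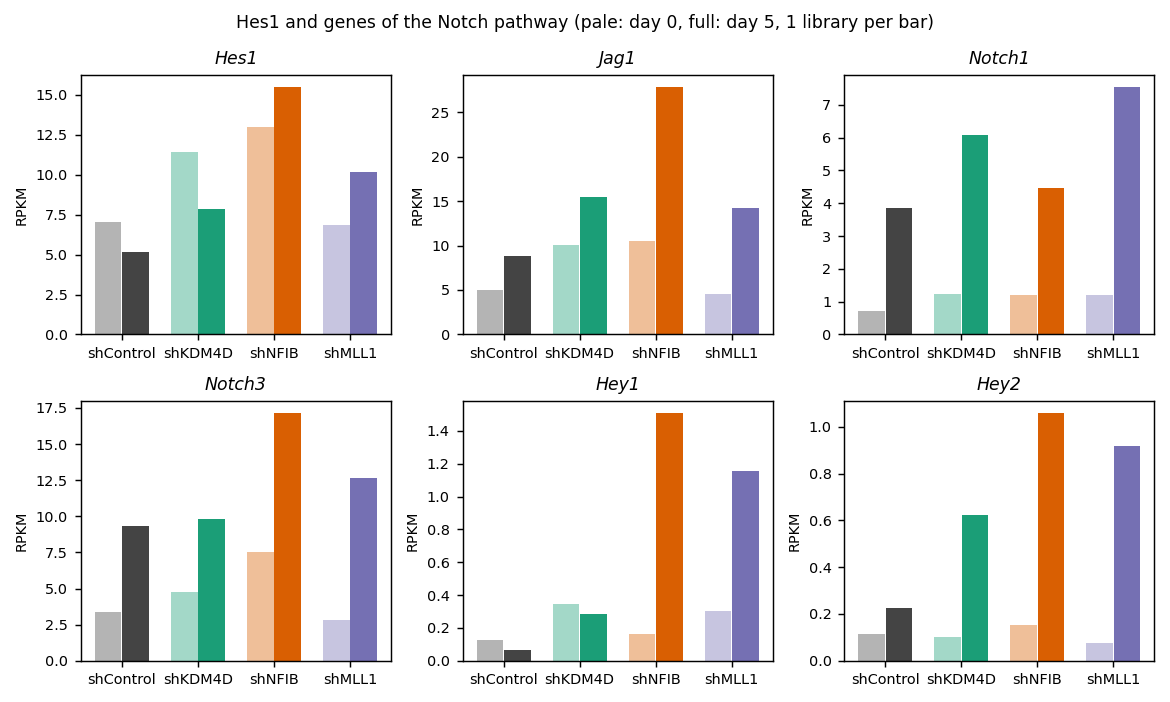
RPKM (vertical axis, from 0) of *Hes1* and of 5 genes of the Notch pathway in the 4 lines (horizontal axis), with day 0 in pale and day 5 in full colour and 1 library per bar. At day 5 all 6 genes were lowest in shControl cells, for example *Jag1* at 8.83 against 14.2 to 27.8 and *Hes1* at 5.16 against 7.86 to 15.5. The 6 were picked from the 16 expressed genes of the list. Of those not drawn, *Notch2* was highest in shControl (7.70 against 6.73 to 7.03), and *Hes6* and *Rbpj* were lowest in shNFIB and in shMLL1 cells. List medians over shControl at day 5 were 0.23, 0.12 and 0.41 in shKDM4D, shNFIB and shMLL1 cells, against 0.01, 0.09 and 0.07 over all genes.

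Other genes known to hold back fat cells were taken from a list of 16, of which 15 are reported and 12 were expressed. From day 0 to day 5, 3 were higher and none lower in shControl, 5 and 1 in shKDM4D, 2 and none in shNFIB, and 1 and none in shMLL1 cells. The shNFIB count takes in *Dlk1* on 1 read. Of all expressed genes 13.0% were higher and 8.56% lower in shControl cells and 12.8% and 8.44% in shKDM4D cells. The shares were 12.6% and 4.96% in shNFIB and 20.4% and 6.89% in shMLL1 cells. The medians of the list were 0.25 in shControl and 0.55 in shKDM4D cells, and none is given for the lines in which *Dlk1* was at 0. *Sox9*, a factor of progenitors and cartilage, went from 59.3 to 133 RPKM in shControl and from 73.8 to 188 in shKDM4D cells. *Dlk1*, which encodes the preadipocyte factor Pref-1, was at 0.823 and 5.09 in shControl and 0.217 and 5.33 in shKDM4D cells, at 0 and 0.0112 in shNFIB, and listed at 0 at both days in shMLL1 cells. Against shControl at day 5, none was higher in any line, while none was lower in shKDM4D, 2 in shNFIB (*Dlk1* and *Zfp521*) and 3 in shMLL1 cells (*Dlk1*, *Tcf7l2* and *Runx2*). *Dlk1* passed an RPKM of 1 only in shControl and shKDM4D cells at day 5. These counts and those between the days thus take it in only through the libraries in which it was high. Of all expressed genes 1.88%, 5.54% and 5.25% were higher and 4.57%, 5.67% and 4.02% lower in these lines. *Tcf7l2*, a mediator of Wnt signals, was at 15.4 in shControl and 6.01 in shMLL1 cells. *Runx2*, the factor of bone cells, was at 5.77 and 2.64 (-1.13, -1.26 to -0.99).

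Among 13 other transcription factor genes of mesenchymal cells, 10 were expressed. The number higher at day 5 was 2 in shControl and 3 in each knockdown line, with none lower except 1 in shMLL1 cells, and the medians were 0.26, 0.28, 0.09 and 0.23. Of all expressed genes 13.0%, 12.8%, 12.6% and 20.4% were higher and 8.56%, 8.44%, 4.96% and 6.89% lower in the same order of lines. *Osr1*, a marker of embryonic fat and muscle connective tissue progenitors, went from 23.9 to 67.4 RPKM in shControl, from 10.7 to 62.8 in shKDM4D, from 9.15 to 49.7 in shNFIB and from 14.4 to 51.1 in shMLL1 cells. *Foxf1* was higher in each line as well, most in shMLL1 cells (0.499 to 3.99, 2.999, 2.55 to 3.47). *Foxc2* was lower in shMLL1 cells (5.69 to 1.31, -2.12, -2.40 to -1.85). At day 0, *Osr1* and *Osr2* were lower than in shControl in shKDM4D and shNFIB cells and *Osr2* in shMLL1 cells, and none of the 10 was higher. At day 5 none of the 10 passed 2-fold against shControl except *Foxc2* in shMLL1 cells (1.31 against 4.75, -1.86, -2.17 to -1.55). Against shControl at day 0, 1.98%, 2.95% and 1.67% of all expressed genes were higher in shKDM4D, shNFIB and shMLL1 cells. The shares lower were 4.26%, 6.05% and 7.43%. The shares at day 5 were 1.88%, 5.54% and 5.25% higher and 4.57%, 5.67% and 4.02% lower.

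**Figure D5:**
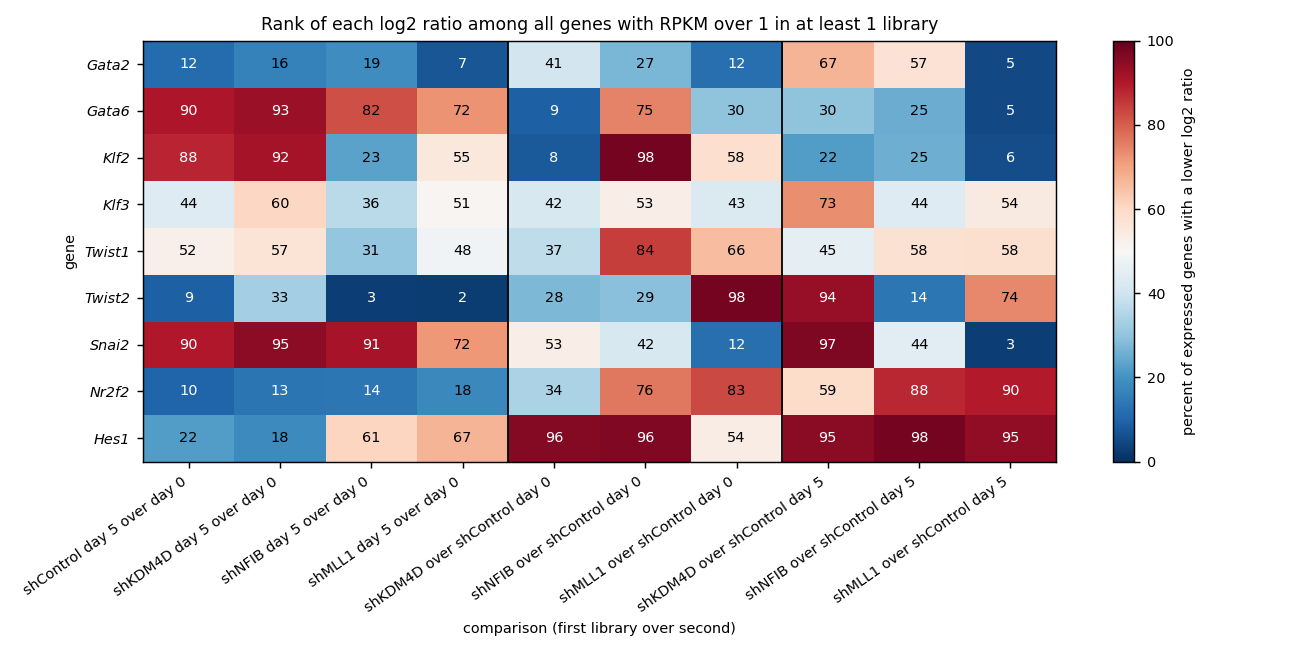
Place of each member's log2 ratio among the 11513 expressed genes, as the percent of genes with a lower ratio (colour and number), for the 9 expressed members (rows) and the 10 comparisons (columns). *Snai2* stood above 94.6% of genes in the day comparison of shKDM4D cells and above 2.89% in shMLL1 over shControl at day 5, while *Klf3* stayed between 36.4% and 73.4%.

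Measured against all expressed genes, *Hes1* stood high in every ratio to shControl but 1: above 96.1% of genes in shKDM4D and 96.3% in shNFIB cells at day 0, and above 95.1%, 97.7% and 94.5% in shKDM4D, shNFIB and shMLL1 cells at day 5. In shMLL1 cells at day 0 it stood above 53.8%. *Twist2* was above 2.41% of genes in the day comparison of shMLL1 cells and above 97.9% in shMLL1 over shControl at day 0. *Nr2f2* kept a place between 10.1% and 17.8% in the day comparison of the 4 lines. These places describe the libraries and carry no error from replicates.

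For each expressed member, the 3 genes with the most similar profile were taken by Pearson's r of log2(RPKM + 0.1) over the 8 libraries, which are the 2 days of 4 lines and differ in depth. With 8 points many genes reach a high r by design of the ranking, so these are descriptions. For *Nr2f2*, 559 genes had an r over 0.9, led by *Rpp30* (0.997), and for *Klf3* 2 genes did, *Dlgap4* (0.94) and *Cep170* (0.92). The gene most like *Gata2* was *Col2a1* (0.99), followed by *Rbpj* (0.96). *Klf2* was most like *Prkar1a* (0.97), *Twist1* like *Il33* (0.97), *Twist2* like *Dhx38* (0.99), *Snai2* like *Nuak1* (0.98), *Gata6* like *Gramd1c* (0.98) and *Hes1* like *Pakap* (0.97). Among the members themselves the most similar pair was *Gata6* and *Snai2* (0.86) and the most opposed was *Snai2* and *Nr2f2* (-0.85).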

How the data were processed

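Total RNA of 8 libraries was sequenced (Illumina) after library preparation with a SMARTer stranded kit. The authors mapped reads to GRCm38 (mm10) in CLC Genomics Workbench, version 11.0.1 (costs of 2 per mismatch and 3 per insertion or deletion, length and similarity fraction 0.8) and deposited RPKM per gene symbol. Quantile normalization, which the methods mention, was not visible in the files. RPKM times the exon length in GENCODE M21 gave whole reads (within 0.02) for 96.2% to 96.6% of the values between 1 and 1000 reads, which gave depths and counting intervals (Clopper-Pearson; the difference of 2 changes by the delta method). Depths were 15800000 to 38200000 mapped reads. Log2 ratios used RPKM with no pseudocount. Expressed meant an RPKM over 1 in at least 1 library, and higher or lower meant more than 2-fold. List genes were named by their log2 ratio (up to 4 per list and comparison, with at least 20 reads), beside genes shown for their known role, which include *Notch3*, *Rbpj*, *Sox9*, *Zeb2* and the *Ctbp* genes. The members and lists were chosen with earlier results of these data known. Strand setting of the counting is not given in the sources used here, and genes overlapping a member were at 0.403 RPKM or less. Counts over lists are over their expressed genes. The day effect over the 4 lines was fitted in limma 3.58.1 (R 4.3.3), a test chosen after seeing the data. Alternatives were pseudocounts of 0.1 and 1, other scales, filters and limits. Interval code and this fit were tested on simulated data. Python 3.11.15, numpy 2.4.6, pandas 2.3.3, scipy 1.17.1 and matplotlib 3.10.9 were used.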

Additional observations from a re-analysis of the deposited data

Results flagged for a closer look

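A set of 3 values was singled out because the change from day 0 to day 5 went one way in shControl cells and the other way in a knockdown line, each beyond counting error. With 1 library per condition the difference was not tested. For *Klf2*, the log2 change in shNFIB cells minus that in shControl cells was -1.39, from -0.32 against 1.08. For *Hes1*, the difference was 0.7 in shNFIB cells, from 0.25 against -0.45, and 1.01 in shMLL1 cells, from 0.57 against -0.45. By the ratio to *Gapdh* the shNFIB change was -0.31, the sign of shControl, and the difference 0.11. At day 5 *Adipoq* was at 258 RPKM in shControl, 0.229 in shNFIB and 0.570 in shMLL1 cells, and its part in these differences was not tested.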

How the results depend on the processing

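Each condition has 1 library, so there was no replicate to leave out. The test of the days over the 4 lines, in which the line is the block, was added after seeing the data. It called 5 members, 3 by the ratio to *Gapdh*, and 4 or 5 with 1 added to each RPKM, quantile normalization, a filter at an RPKM of 2, or without any 1 line. The number of expressed members past 2-fold was recomputed under 10 alternatives for each of the 10 comparisons. From day 0 to day 5 in shControl cells it was 3, and 1 with 1 added to each RPKM, 1 where the whole counting interval had to pass 2-fold, and 6 at a limit of 1.5-fold. In shKDM4D cells it was 3, and 5 at 1.5-fold. In shNFIB cells it was 2, and 1 with 1 added to each RPKM and 1 by the whole interval. In shMLL1 cells it was 1, and 2 with quantile normalization, with median-of-ratios scaling, without the ribosomal RNA-like reads and by the ratio to *Gapdh*, where *Gata2* joined *Twist2*, and 4 at 1.5-fold. Against shControl at day 0 it was 0 in shKDM4D cells, and 1 by the ratio to *Gapdh* and 2 at 1.5-fold. It was 1 in shNFIB cells, and 3 by the ratio to *Gapdh*, 2 with no filter, 0 by the whole interval and 2 at 1.5-fold. It was 0 in shMLL1 cells, and 3 at 1.5-fold. At day 5 it was 0 in shKDM4D cells, and 2 at 1.5-fold, and 1 in shNFIB cells, and 2 with no filter, where *Gata3* enters, and 2 at 1.5-fold. It was 1 in shMLL1 cells, and 3 with quantile normalization, 4 by the ratio to *Gapdh* and 6 at 1.5-fold. No other count moved by more than 1.5 times. No ratio past 2-fold changed its sign. Of the 100 ratios of members, 72 had a counting interval without 0, and 7 of these turned their sign under at least 1 of 6 scales and pseudocounts, 6 by the ratio to *Gapdh* and 1, *Gata6* in shMLL1 cells, by quantile normalization. *Gapdh* itself was at 159 RPKM in shNFIB and 326 in shKDM4D cells at day 0. Its ratio moved the median log2 ratio of all expressed genes from 0.03 to 0.67 in shNFIB over shControl at day 0, where the genes higher and lower went from 2.95% and 6.05% to 19.7% and 3.01%. Quantile normalization moved that of the day comparison in shMLL1 cells from 0.17 to -0.09 and the genes higher and lower from 20.4% and 6.89% to 13.3% and 11.9%. In the day comparison the ratio to *Gapdh* gave 23.5% and 4.28% in shKDM4D cells against 12.8% and 8.44%, and 7.30% and 17.5% in shNFIB cells against 12.6% and 4.96%. The depth limits *Gata3* and *Gata6* most, with as few as 13 and 41 reads in a library.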
